A study of Mus musculus with 6 samples.

Results

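The 10 genes described here encode the lysyl oxidases (Lox, Loxl1, Loxl2, Loxl3 and Loxl4), elastin (Eln), fibronectin (Fn1) and 3 proteins of the elastic fibre scaffold (Fbn1, Fbln5 and Mfap5). They were chosen by name, through probe sets whose identifier is the gene ID followed by _at, out of 20564 genes compared, and the choice was made with the difference between treated and untreated mice already known. That difference is therefore given for them as a description, with no test. RNA of the gastric corpus, the part of the stomach whose glands secrete acid, was hybridised to Affymetrix arrays with 1 sample each. All mice were female wildtype Balb/c animals aged 8 to 12 weeks. The 3 dexamethasone samples came from mice that drank water with this synthetic glucocorticoid at 50 mg per litre for 3 days, renewed on day 2, and the 3 control samples came from untreated mice. The labels give the dose in the water, not the amount each mouse took up, and do not say whether a sample was 1 mouse or a pool. The tissue was dissected whole, so each value sums epithelium, connective tissue, vessels and muscle, and more cells of a type cannot be told apart from more RNA per cell.

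Elastic fibres have a core of crosslinked elastin laid on a scaffold of microfibrils, which are built mainly of fibrillin. Lysyl oxidases are copper enzymes that oxidise lysine residues of elastin and collagen, and the products condense into the covalent crosslinks that make these fibres insoluble. Fibronectin is deposited by cells as a fibrillar network that binds integrins, and collagen and microfibrils are assembled on it. In the wall of the stomach these proteins lie in the lamina propria, the submucosa, the vessels and the muscle layers, and are made by fibroblasts, smooth muscle and endothelium.

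Array medians ran between 7.96 and 8.00 in log2 units, and pairs of arrays correlated at 0.983 to 0.996 over all genes. The proton pump gene Atp4a, which defines the acid-secreting parietal cell, stood between 13.78 and 13.89 on every array, in a table whose values ran between 4.84 and 14.32. Other gastric epithelial markers were less even. Of the 9 measured, 4 differences lay above 0 and 5 below. The log2 difference was -0.81 for Muc6, -0.61 for Tff2 and -0.29 for Muc5ac (limma adjusted p = 0.388, 0.129 and 0.188). Fkbp5, a glucocorticoid target used as a check of the treatment, stood at 10.26, 10.89 and 11.25 on the dexamethasone arrays and at 9.26, 8.62 and 8.88 on the control arrays (log2 difference 1.88, SE 0.25, limma adjusted p = 0.0150, and up to 0.0960 without dexamethasone replicate 2 or control replicate 3). Squamous markers, which stand for the forestomach next to the corpus, were uneven among samples of 1 group: the mean over 16 such genes was 10.03, 10.02 and 8.47 on the dexamethasone arrays and 8.28, 9.71 and 8.43 on the control arrays. Of all genes compared, 388 passed an adjusted p of 0.05 in limma (1.89%).

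Lox, elastin, fibronectin and fibrillin-1 were higher in the dexamethasone samples, while the other lysyl oxidases and the other scaffold genes differed little. The folds were 2.92 for Lox, 2.43 for Fn1, 1.81 for Eln and 1.40 for Fbn1. The other 6 were at or below the 1.21 of Loxl2. The 10 differences all lay above 0, with a median of 0.21 on the log2 scale, beside a median of 0.00 over all genes. Ordered among the 20564 differences, counted from the highest, Lox was at place 21, Fn1 at 28, Eln at 78 and Fbn1 at 273. Lox, Fn1, Eln and Fbn1 were past the threshold in the fit over all genes and 0 members passed it downward, where 0.812% of all genes passed it upward and 1.07% downward. In 5 of the 10 (the same 4 genes and Loxl2) every dexamethasone sample lay above every control sample, which held for 8.82% of all genes. As the members were chosen with these differences known, nothing is read from either count. The 4 became 2 (Lox and Fn1) when dexamethasone replicate 1 or 2, or control replicate 2 or 3, was left out.

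**Figure D1:**
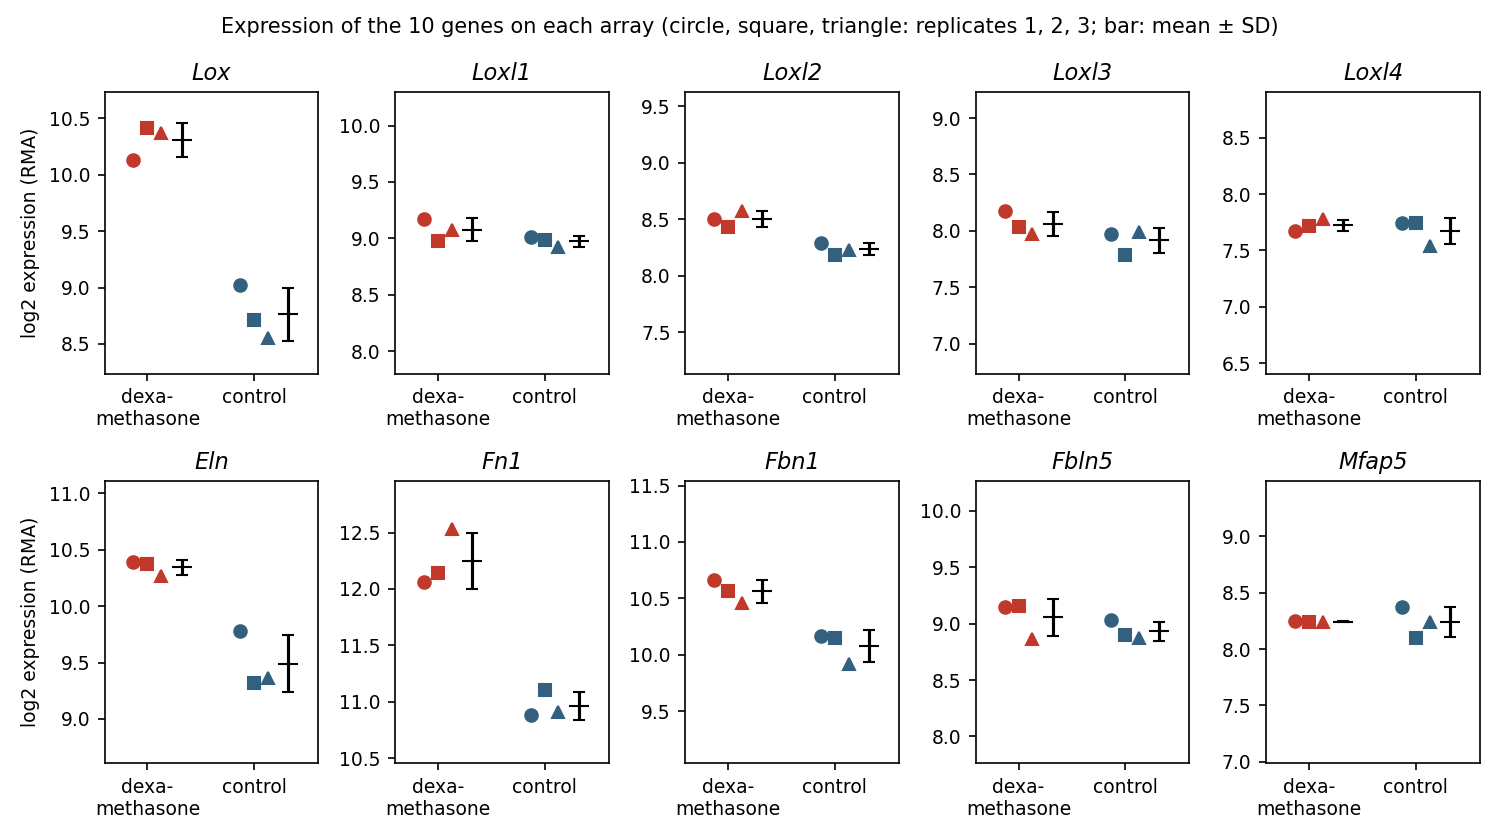
Log2 RMA expression (vertical axes, each spanning the same range of log2 units) of the 10 genes on the 3 dexamethasone arrays (red, left) and the 3 control arrays (blue, right), with the mean and SD of each group as a bar. In Lox the dexamethasone arrays sit at 10.13 to 10.42 and the control arrays at 8.55 to 9.02, while in Mfap5 the dexamethasone values lie within the control range.

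Among the lysyl oxidases, Lox, the founding enzyme of the family, differed most. Lox stood at 10.13, 10.42 and 10.37 on dexamethasone arrays 1, 2 and 3 and at 9.02, 8.71 and 8.55 on control arrays 1, 2 and 3. The lowest dexamethasone value was 1.11 above the highest control value, and the values spanned 0.28 within the dexamethasone group and 0.47 within the control group. The means were 10.31 ± 0.15 with dexamethasone and 8.76 ± 0.24 in controls (SD, n = 3 each), a log2 difference of 1.54 (SE 0.13).

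Loxl2, an enzyme that crosslinks collagen IV of basement membranes, had 8.50, 8.43 and 8.57 on the dexamethasone arrays against 8.29, 8.18 and 8.22 on the control arrays. Its groups did not overlap either, with a gap of 0.14 between the lowest dexamethasone and the highest control value, but its log2 difference was 0.27 (SE 0.065), against 1.54 for Lox. Loxl1, the family member tied to elastin deposition, had 9.18, 8.98 and 9.08 with dexamethasone and 9.02, 8.99 and 8.92 in controls. Its groups overlapped, since dexamethasone replicate 2 lay below control replicates 1 and 2, and the difference was 0.10 (SE 0.071). For Loxl3 the values were 8.18, 8.03 and 7.97 with dexamethasone and 7.97, 7.79 and 7.99 in controls. Loxl4 had 7.67, 7.72 and 7.78 with dexamethasone, against 7.74, 7.74 and 7.54 in controls. Both overlapped between groups, with differences of 0.14 (SE 0.084) for Loxl3 and 0.05 (SE 0.076) for Loxl4. The difference of Loxl4 had the other sign without control replicate 3 (-0.02).

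Elastin, the rubber-like core of the fibre and a substrate of the lysyl oxidases, was higher on all dexamethasone arrays. Eln stood at 10.39, 10.37 and 10.27 with dexamethasone and at 9.78, 9.32 and 9.37 in controls. The dexamethasone arrays lay within 0.13 of each other, whereas control replicate 1 stood above the other controls and still 0.49 below the lowest dexamethasone array. The means were 10.34 ± 0.069 with dexamethasone and 9.49 ± 0.25 in controls (SD, n = 3 each), a log2 difference of 0.85 (SE 0.12). Lox was also highest in control replicate 1 among the controls.

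Fibronectin, the glycoprotein that links cells to the matrix through integrins, had the second largest difference of the 10. Fn1 stood at 12.06, 12.14 and 12.53 on the dexamethasone arrays, against 10.88, 11.11 and 10.90 on the control arrays. Dexamethasone replicate 3 was the highest here, whereas for Eln and Fbn1 it was the lowest of the dexamethasone arrays, and the gap between the groups was 0.96. The means were 12.24 ± 0.25 with dexamethasone and 10.96 ± 0.12 in controls (SD, n = 3 each), a log2 difference of 1.28 (SE 0.13).

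Of the scaffold genes, Fbn1, which encodes fibrillin-1, the main microfibril protein, was 10.66, 10.57 and 10.46 with dexamethasone and 10.16, 10.15 and 9.91 in controls. The groups were separated by 0.30, and the difference was 0.49 (SE 0.090). Its probe set is not listed in the platform annotation and was named through its gene ID. Fbln5 encodes fibulin-5, which binds elastin and integrins and guides elastin onto microfibrils. Its values were 9.14, 9.16 and 8.87 with dexamethasone and 9.03, 8.90 and 8.87 in controls, so dexamethasone replicates 1 and 2 lay above all controls and dexamethasone replicate 3 just below the lowest one (8.868 against 8.871), and the difference was 0.12 (SE 0.094). Mfap5, a glycoprotein that binds fibrillin microfibrils, gave 8.25, 8.24 and 8.24 with dexamethasone and 8.38, 8.10 and 8.24 in controls. The dexamethasone values of Mfap5 lay inside the control range, with a difference of 0.00 (SE 0.078), whose sign turned with median centring (-0.01), with quantile normalization (-0.0036), and without dexamethasone replicate 1 (-0.00048) or control replicate 2 (-0.07).

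RefSeq promoter windows of build GRCm38.p6, running from 250 bases before to 50 after the annotated start, were taken for the 10 genes. Windows on 1 chromosome were left out, so a member lying there could not be shown. Outside that chromosome, the set of windows matched 3 of the 10 genes and did not hold the others. They are shown because these genes had a window, not for a contrast between them. Fbn1 is a gene whose groups were apart, and the others are a scaffold gene and a lysyl oxidase whose groups overlapped. Lox, Fn1 and Eln, which differed most, have no window here. Each is written 5′ to 3′ on the strand of the gene, with capitals marking GGGCGG or its reverse CCGCCC, the GC box that Sp1-type factors bind.
Fbn1, chr2:125506389-125506688, minus strand: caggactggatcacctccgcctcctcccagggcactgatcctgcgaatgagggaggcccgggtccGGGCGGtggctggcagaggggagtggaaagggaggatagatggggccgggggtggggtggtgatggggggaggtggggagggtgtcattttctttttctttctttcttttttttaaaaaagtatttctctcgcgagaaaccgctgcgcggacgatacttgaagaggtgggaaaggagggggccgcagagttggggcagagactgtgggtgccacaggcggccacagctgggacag
Fbln5, chr12:101819070-101819369, minus strand: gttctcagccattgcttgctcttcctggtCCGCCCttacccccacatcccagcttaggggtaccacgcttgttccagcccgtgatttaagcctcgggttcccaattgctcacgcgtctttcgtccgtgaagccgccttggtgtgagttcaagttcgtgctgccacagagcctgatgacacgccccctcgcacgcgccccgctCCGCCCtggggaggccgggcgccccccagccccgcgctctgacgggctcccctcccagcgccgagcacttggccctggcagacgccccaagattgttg
Loxl4, chr19:42612757-42613056, minus strand: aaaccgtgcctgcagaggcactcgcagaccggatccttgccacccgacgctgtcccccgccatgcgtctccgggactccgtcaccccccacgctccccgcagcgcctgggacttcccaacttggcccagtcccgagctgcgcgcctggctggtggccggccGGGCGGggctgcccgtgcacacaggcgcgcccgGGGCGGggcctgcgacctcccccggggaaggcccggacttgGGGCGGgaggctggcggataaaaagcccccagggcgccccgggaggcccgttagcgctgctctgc
The box occurred 1 time in the Fbn1 window, 2 times in the Fbln5 window and 3 times in the Loxl4 window, and at least once in 35.7% of 32851 windows of the same length. A second annotated start of Fbln5 had 0. The share of G and C was 60.3% for Fbn1, 65.7% for this Fbln5 window and 75.0% for Loxl4, beside a median of 52.7% over all windows. The glucocorticoid receptor's half-site AGAACA (reverse TGTTCT) was in 0 of them and in 19.0% of all, and TATAAA (reverse TTTATA) in 0 of them and in 13.6% of all. All motifs were searched on both strands.

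**Figure D2:**
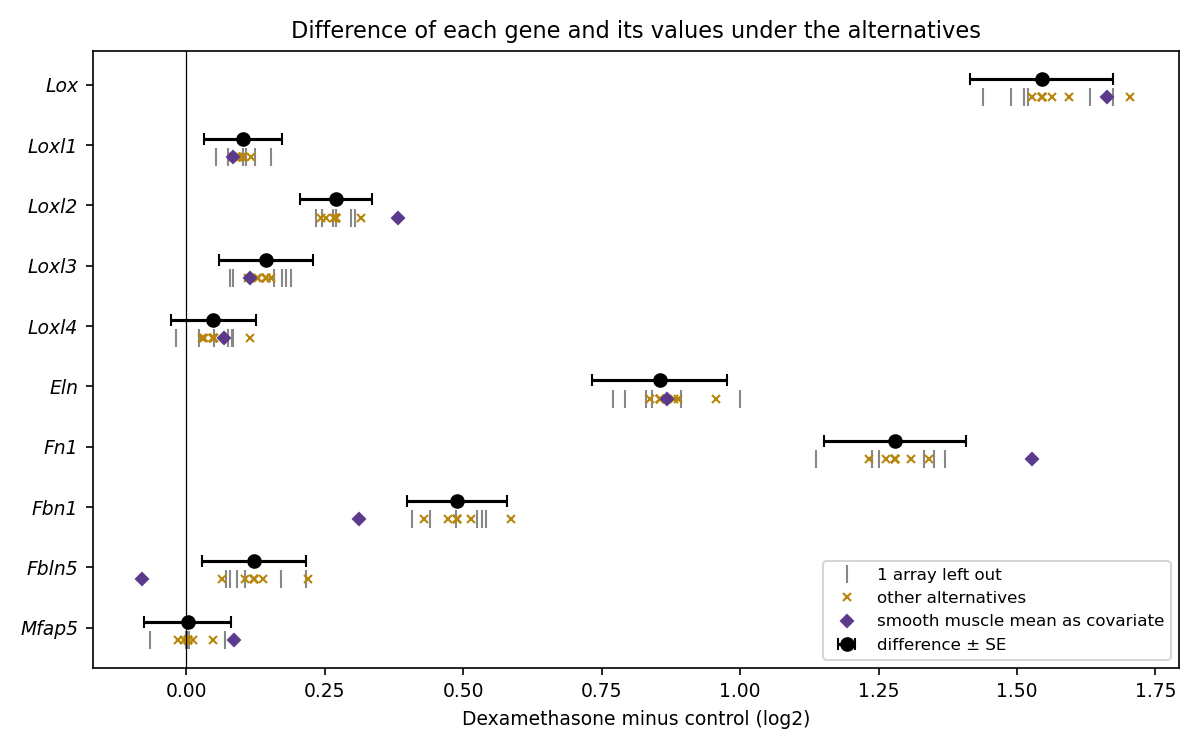
Dexamethasone minus control on the log2 scale (horizontal axis) for each of the 10 genes, as the difference with its SE (black), with 1 array left out (grey ticks), with each array's smooth muscle mean as a covariate (violet) and under the other alternatives (crosses). Lox stays between 1.44 and 1.70 and Fn1 between 1.14 and 1.53, whereas Fbn1 lies between 0.31 and 0.59 and Mfap5 on both sides of 0.

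Markers of the cell types that make these proteins moved with the groups in part. Smooth muscle genes were higher on dexamethasone arrays 1 and 2, with a mean over 11 markers of 11.35, 11.31 and 10.85 with dexamethasone and 10.58, 10.85 and 10.58 in controls. All 11 differences were above 0 (median 0.46), and 2 of them passed the test: the smooth muscle actin gene Actg2 rose (log2 difference 0.81, SE 0.10, limma adjusted p = 0.0112, and up to 0.0689 without dexamethasone replicate 1 or 2 or control replicate 3), as did the calponin gene Cnn1 (0.73, SE 0.13, adjusted p = 0.0391). Cnn1 lost the call with quantile normalization (adjusted p = 0.0508) and without any 1 array other than dexamethasone replicate 3 (up to 0.200). With the smooth muscle mean, which holds both genes, as a covariate their adjusted p was 0.141 for Actg2 and 0.402 for Cnn1. Tagln and Des stood at 0.54 and 0.60 (adjusted p = 0.0873 and 0.116). Dexamethasone replicate 3 was 0.003 above control replicate 2 for this mean, and in that same sample Lox was 1.61, Fn1 1.56, Eln 0.78 and Fbn1 0.39 above the mean of the controls. With each array's smooth muscle mean as a covariate the difference was 1.66 for Lox, 1.53 for Fn1, 0.87 for Eln, 0.38 for Loxl2, 0.31 for Fbn1 and -0.08 for Fbln5. Fbn1 and Fbln5 were thus the members whose difference was lower by more than the spread between replicates in that fit.

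The fibroblast list had a mean of 9.78, 9.78 and 9.70 with dexamethasone and 9.70, 9.56 and 9.47 in controls. Of its 12 genes 2 rose, 0 fell and 10 did not pass (median difference 0.17). Pi16, a marker of adventitial fibroblasts, rose 1.62-fold (log2 difference 0.70, SE 0.064, limma adjusted p = 0.00286). The PDGF receptor gene Pdgfra, a general fibroblast marker, rose 1.48-fold (0.57, SE 0.062, adjusted p = 0.00540). Both stayed past the threshold whichever array was left out, but not with the smooth muscle mean as a covariate (difference 0.66, adjusted p = 0.0512 for Pi16 and 0.53, 0.0807 for Pdgfra). Pdpn (podoplanin) stood at 0.36 and Col15a1 at -0.27 (adjusted p = 0.0852 and 0.0864). Dcn stood at 0.50 and Lum at -0.53 (adjusted p = 0.105 and 0.178), both named after their values were seen. At an unadjusted p under 0.05 in limma 4 of the 12 were higher and 2 lower. Among the markers, the fibrillar collagen genes Col1a1 and Col1a2, named after their values were seen, are substrates of the lysyl oxidases. Col1a1 stood at 11.32, 11.17 and 11.52 with dexamethasone and at 11.71, 10.91 and 10.86 in controls. Col1a2 stood at 11.13, 11.06 and 11.25 with dexamethasone and at 11.34, 10.84 and 10.82 in controls. Both overlapped between the groups, and control replicate 1, the control in which Lox and Eln were highest, held the highest value of all 6 arrays. Over the arrays the fibroblast mean correlated at 0.849 with Lox, 0.915 with Eln, 0.907 with Fbn1 and 0.683 with Fn1. With each group's mean subtracted these values were 0.728, 0.89, 0.807 and -0.402. The fibroblast mean was not used as a covariate.

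Squamous markers, high on dexamethasone arrays 1 and 2 and on control array 2, took another order over the arrays than Lox, Fn1, Eln and Fbn1. Over the arrays their mean correlated at 0.64 with Fbln5 and 0.62 with Fbn1, against 0.39 with Lox and 0.36 with both Eln and Fn1. The difference of Fbln5 was 0.12, and 0.06 with the squamous mean as a covariate. Control replicate 2 had a squamous mean of 9.71, while its Lox (8.71), Eln (9.32) and Fbn1 (10.15) lay within the range of the other controls or below it, and its Fn1 (11.11) was the highest of the controls. Dexamethasone replicate 3 had a squamous mean of 8.47, with Lox at 10.37 and Fn1 at 12.53. With that mean as a covariate the differences were 1.59 for Lox, 1.34 for Fn1, 0.89 for Eln and 0.43 for Fbn1. Krt6a, a stress-inducible keratin, rose among the 16 squamous genes (log2 difference 0.61, SE 0.10, limma adjusted p = 0.0354), a call lost without dexamethasone replicate 1 or 2 or control replicate 1 or 3 (adjusted p up to 0.185) and with the smooth muscle covariate (0.343). Not past the threshold were Krt14 at 1.08, Krt5 at 1.75 and Dsg3 at 1.21 (adjusted p = 0.245, 0.268 and 0.420). Of 6 pericyte, 8 endothelial, 6 mesothelial, 6 adipocyte and 9 gastric epithelial markers 0 passed in limma, with 3 pericyte and 2 endothelial genes higher and 1 mesothelial and 2 gastric epithelial genes lower at an unadjusted p under 0.05. The pericyte mean was 9.43, 9.44 and 9.25 with dexamethasone and 9.03, 9.19 and 9.04 in controls. Over the arrays it correlated at 0.827 with Lox, 0.791 with Eln, 0.915 with Fbn1 and 0.798 with Fn1. With each group's mean subtracted these values were -0.253, -0.185, 0.587 and -0.393. The pericyte mean was not used as a covariate. The part of cell composition in the differences of the 10 genes was not tested further.

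**Figure D3:**
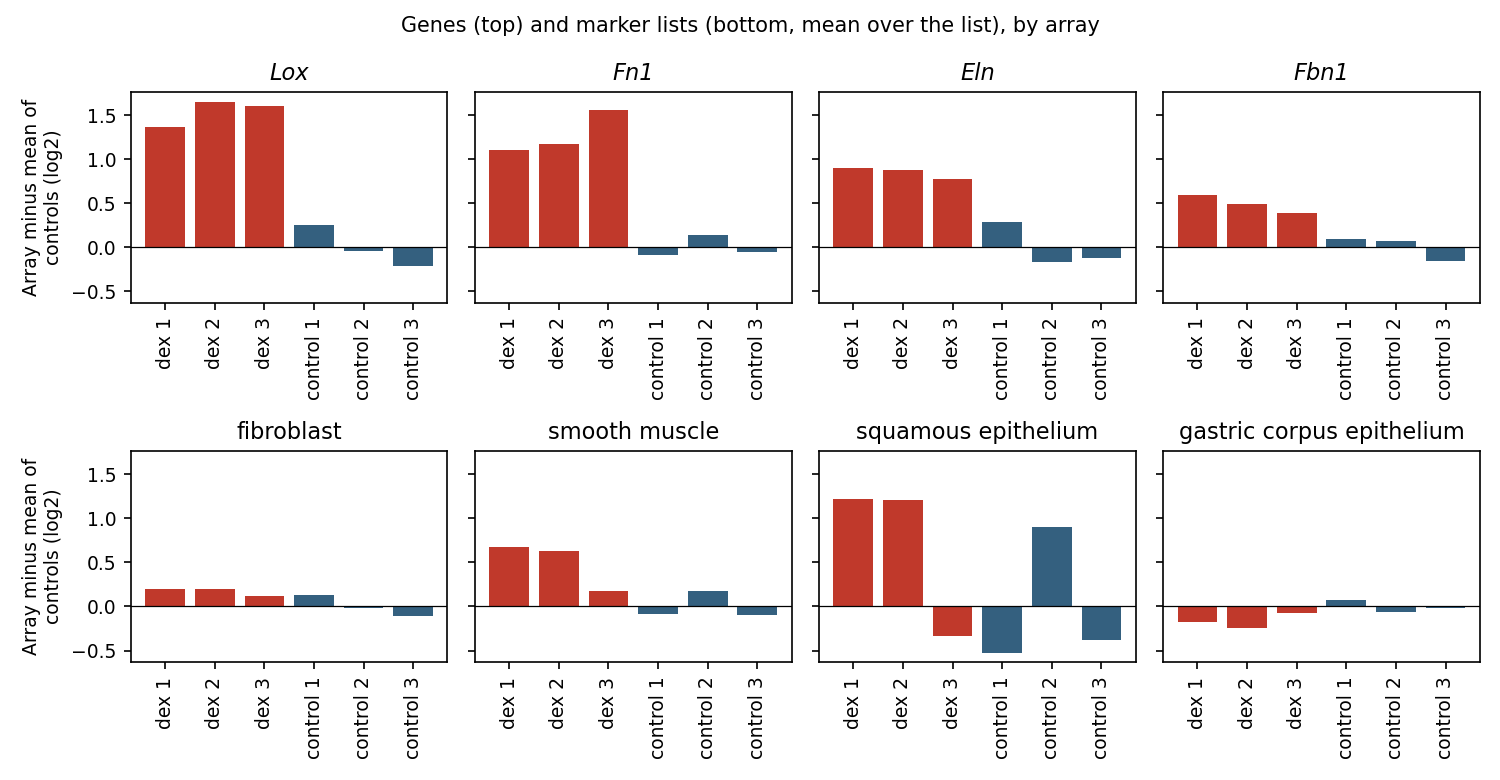
Each array minus the mean of the 3 control arrays on the log2 scale (vertical axis, shared), for 4 genes (top row) and for the mean over 4 marker lists (bottom row), with dexamethasone arrays in red at the left and control arrays in blue at the right. In dexamethasone replicate 3 the smooth muscle mean is 0.18 and the squamous mean -0.33, while Lox is 1.61 and Fn1 1.56.

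The other genes of elastic fibre and fibronectin biology were compared through 5 lists of known partners, 75 genes in all. Of these 8 rose, 2 fell and 65 did not pass, where 0.812% of all genes rose and 1.07% fell, and the median difference was 0.07. With the smooth muscle mean as a covariate 0 rose and 0 fell, in a fit that called 77 genes higher and 95 lower over all genes. The differences in that fit were 0.98 for Itga5, 1.09 for Thbs1, 0.80 for Ccn2 and 0.88 for Adamtsl2. Without the covariate they were 0.98, 0.99, 0.79 and 0.66. Tgfbr3 stood at 0.51 (0.70 without it), Itgb3 at 0.46 (0.58), Plod2 at 0.37 (0.59) and Tgfb3 at 0.29 (0.42). Efemp1 stood at -0.58 (-0.72) and Ctss at -0.72 (-0.57). Why the calls ended was not tested. The 8 became 1 without dexamethasone replicate 1 or 2, 3 without control replicate 2, 2 without control replicate 3 and 13 without dexamethasone replicate 3. The 2 became 1 without dexamethasone replicate 1 or control replicate 1 and 0 without dexamethasone replicate 2 or control replicate 2 or 3. Plod2, Itgb3, Adamtsl2, Tgfb3 and Ccn2 each lost the call without dexamethasone replicate 1 or 2 or control replicate 2 or 3, Tgfbr3 without dexamethasone replicate 1 or 2 or control replicate 3, and Thbs1 without dexamethasone replicate 1 or 2. Efemp1 lost it without dexamethasone replicate 2 or control replicate 2 or 3, and Ctss without any array other than dexamethasone replicate 3. In these refits the adjusted p of the 9 genes was at most 0.148.

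Of 13 receptor genes 2 rose and 11 did not pass (median difference 0.13). Itga5, the alpha chain of the main fibronectin receptor, had 9.29, 9.64 and 9.51 with dexamethasone, against 8.46, 8.59 and 8.46 in controls. It rose 1.97-fold (log2 difference 0.98, SE 0.096, limma adjusted p = 0.00379), and was the 1 partner gene still called whichever of the 6 arrays was left out (highest adjusted p = 0.0380). Its beta chain, Itgb1, stood at 0.36 (adjusted p = 0.174). Itgb3, whose integrin also binds fibronectin, had 9.22, 9.41 and 9.15 with dexamethasone and 8.80, 8.66 and 8.58 in controls. It rose 1.49-fold (0.58, SE 0.090, adjusted p = 0.0246). Tns1, a tensin at fibrillar adhesions, stood at 0.46 (adjusted p = 0.105). The RefSeq promoter window of Itga5 (GRCm38.p6) is shown as that of the fibronectin receptor gene that rose, with the GC box in capitals as above.
Itga5, chr15:103366742-103367041, minus strand: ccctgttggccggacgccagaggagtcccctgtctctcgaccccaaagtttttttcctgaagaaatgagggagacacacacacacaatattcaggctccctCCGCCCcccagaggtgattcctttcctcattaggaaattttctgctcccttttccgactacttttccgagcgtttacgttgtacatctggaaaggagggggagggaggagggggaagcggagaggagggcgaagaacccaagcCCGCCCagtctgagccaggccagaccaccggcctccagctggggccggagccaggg
It held the box 2 times, had a G and C share of 58.7%, and held 0 copies of the glucocorticoid half-site. Outside the chromosome left out, the set of windows held 3 of the other called partner genes and did not hold the rest. The half-site occurred 2 times in that of Ctss and 0 times in those of Efemp1 and Adamtsl2, and each held the GC box 1 time.

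Of 19 microfibril and elastic fibre partners 1 rose, 1 fell and 17 did not pass (median difference 0.06). Efemp1, which encodes fibulin-3, a relative of fibulin-5, had 8.08, 8.37 and 8.42 with dexamethasone and 8.95, 9.06 and 9.01 in controls. It fell by 0.72 on the log2 scale (SE 0.096, limma adjusted p = 0.0140), the opposite direction to Eln and Fbn1. Adamtsl2, a secreted glycoprotein that binds fibrillin-1 and latent TGF-beta binding protein, had 8.41, 8.39 and 8.74 with dexamethasone and 7.92, 7.92 and 7.75 in controls. It rose 1.57-fold (0.66, SE 0.11, adjusted p = 0.0269, and adjusted p = 0.0815 with the replicate number as a block). Adamtsl4 and Ltbp1, which also bind fibrillin microfibrils, stood at 0.44 and 0.45 (adjusted p = 0.0941 and 0.114).

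Of 14 genes of procollagen and lysyl oxidase processing 1 rose and 13 did not pass (median difference 0.03). Plod2 encodes a lysyl hydroxylase that modifies the collagen telopeptide lysines on which lysyl oxidases then act. Its values were 10.18, 10.09 and 9.94 with dexamethasone and 9.56, 9.58 and 9.31 in controls, a rise of 1.50-fold (log2 difference 0.59, SE 0.096, limma adjusted p = 0.0283). The related hydroxylase gene Plod1 stood at 0.22, the collagen chaperone gene Fkbp10 at 0.14 and the copper chaperone gene Atox1 at -0.18 (adjusted p = 0.183, 0.376 and 0.430). Bmp1, the protease that cleaves the propeptide of Lox, had 9.05, 8.93 and 8.99 with dexamethasone and 8.99, 8.96 and 8.92 in controls, and was named after its values were seen.

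Of 16 genes of TGF-beta signalling and its matrix targets 4 rose and 12 did not pass (median difference 0.11). TGF-beta is a growth factor known to raise the expression of many matrix genes, fibronectin, elastin and Lox among them. Thbs1 (thrombospondin-1, which activates latent TGF-beta) rose 1.98-fold (log2 difference 0.99, SE 0.13, limma adjusted p = 0.0120). Ccn2, the connective tissue growth factor, rose 1.73-fold (0.79, SE 0.12, adjusted p = 0.0213), with 9.77, 9.85 and 9.65 with dexamethasone and 9.22, 8.77 and 8.89 in controls. As for Eln and Lox, its highest control was replicate 1. Tgfbr3, the coreceptor betaglycan, rose 1.62-fold (0.70, adjusted p = 0.00867), and the ligand gene Tgfb3 rose 1.33-fold (0.42, adjusted p = 0.0205, and adjusted p = 0.0649 with the replicate number as a block). The ligand genes Tgfb1 and Tgfb2, named after their values were seen, stood at -0.08 and 0.10 (adjusted p = 0.722 and 0.618). At an unadjusted p under 0.05 in limma 6 of the 16 genes were higher and 4 lower. The lower ones were Smad2 at -0.35, Smad3 at -0.15, Tgfbi at -0.18 and Skil at -0.18 (adjusted p = 0.157, 0.353, 0.320 and 0.292). Whether TGF-beta signalling differed between the groups was not tested.

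Of 13 proteases of elastin and fibronectin and their inhibitors 1 fell and 12 did not pass (median difference -0.01). Ctss, cathepsin S, an elastin-degrading protease of macrophages and dendritic cells, had 9.49, 9.54 and 9.26 with dexamethasone, against 10.16, 9.91 and 9.93 in controls. It fell by 0.57 on the log2 scale (SE 0.10, limma adjusted p = 0.0375), a call that ended with the replicate block (0.0522) or quantile normalization (0.0549). Among 8 macrophage markers 1 rose, the scavenger receptor gene Cd163 (log2 difference 1.14, SE 0.085, adjusted p = 0.00136), and Adgre1 stood at -0.22, C1qb at 0.21 and Mrc1 at 0.23 (adjusted p = 0.162, 0.191 and 0.290). At an unadjusted p under 0.05 in limma 3 of the 8 were higher and 2 lower. The macrophage mean was 8.58, 8.63 and 8.65 with dexamethasone and 8.45, 8.39 and 8.53 in controls. Over the arrays it correlated at 0.845 with Fn1 and 0.836 with Lox (0.0335 and -0.118 with each group's mean subtracted). The metalloproteinase inhibitor gene Timp1 stood at 0.37, the cathepsin gene Ctsl at 0.32 and Ctsk at -0.27 (adjusted p = 0.186, 0.231 and 0.271).

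**Figure D4:**
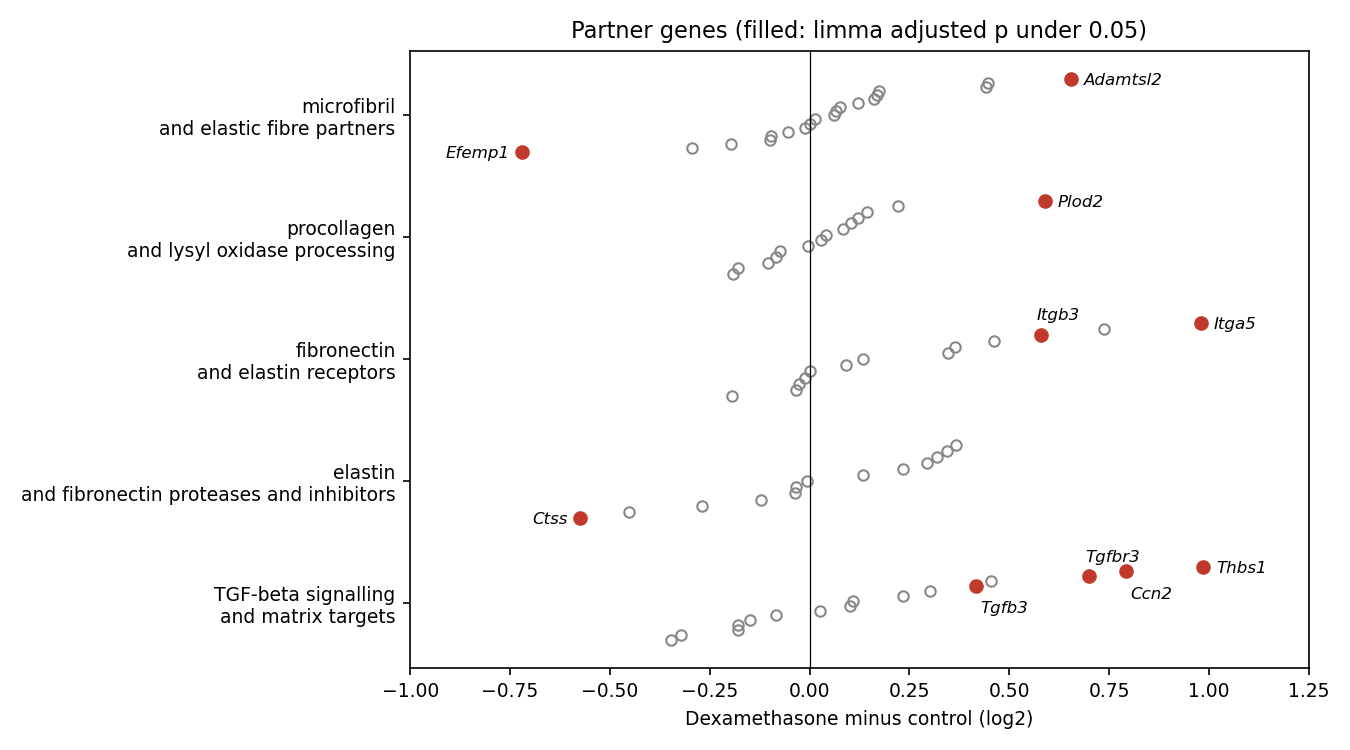
Dexamethasone minus control on the log2 scale (horizontal axis) for the 75 partner genes in 5 lists, 1 circle per gene, filled and named where limma's adjusted p was under 0.05. The 8 filled circles right of 0 lie between 0.42 and 0.99, and the 2 left of 0 are Efemp1 and Ctss.

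To place Lox, Fn1 and Eln among all genes, the 3 genes with the highest Pearson correlation to each over the 6 arrays were taken from 432 genes whose highest and lowest array differed by at least 1. The difference between the groups makes up most of each correlation and the arrays are shared, so these values describe the pattern and carry no test. Nearest to Lox were Dpep1 (a membrane dipeptidase, r = 0.995), Enpp2 (autotaxin, the enzyme that makes lysophosphatidic acid, r = 0.995) and Ndrg4 (r = 0.994). Nearest to Eln were Ccn2 (r = 0.995), Actg2 (r = 0.974) and Ndrg4 (r = 0.972). Nearest to Fn1 were the protease inhibitor gene Serpina3n (r = 0.989), the opioid precursor gene Penk (r = 0.988) and F13a1 (r = 0.987), which encodes the coagulation factor XIII A chain, a transglutaminase that crosslinks fibronectin. Enpp2 stood at 11.11, 11.24 and 11.39 with dexamethasone and at 9.79, 9.34 and 9.37 in controls, with control replicate 1 the highest control, as for Lox. F13a1 stood at 8.87, 9.19 and 9.28 with dexamethasone and at 7.53, 7.61 and 7.56 in controls, with dexamethasone replicate 3 the highest, as for Fn1.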

How the data were processed

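The deposited table gives log2 values for each probe set. Per the submitters' processing notes the authors used R 2.9, limma and RMA, with no role given for each. The chip definition version is not given in the sources used here. RMA normally equalises the arrays' distributions, so differences are relative to the bulk of the genes, and it compresses those of dim probe sets. Of 20985 probe sets, 19921 had 1 symbol in the platform annotation, which can be old, and 0 had several. In each of these the probe set name was the gene ID followed by _at, so 645 of the 1064 unlisted ones, Fbn1 among them, were named by gene ID through RefSeq (GRCm38.p6), and 419 stayed unnamed. For 2 symbols with 2 probe sets the brighter was kept, which gave 20564 genes.

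Genes were fitted with limma 3.58.1 in R 4.3.3 (lmFit, eBayes, two-sided, no filter), with Benjamini-Hochberg adjustment over all genes. A gene was called, or said to have risen or fallen, at an adjusted p under 0.05. SE are limma's moderated ones. An exact permutation test of 3 against 3 has a smallest p of 0.1 and was not used. With 3 arrays in a group, their number limits the precision. The members and lists were chosen with earlier results of these data known. The genes named are all members, Fkbp5, every called gene of the lists, and the 3 nearest genes to Lox, Eln and Fn1. In the partner, fibroblast, smooth muscle, squamous and macrophage lists up to 4 genes of smallest p were named too. The pericyte, endothelial, mesothelial and adipocyte lists are given without naming genes. Outside that rule, Atp4a, Muc6, Tff2, Muc5ac, Col1a1, Col1a2, Dcn, Lum, Bmp1, Tgfb1, Tgfb2, Smad2, Smad3, Tgfbi and Skil were named after their values were seen. The lists name 158 genes, of which 1 was not measured. In simulated data of 20564 genes for this comparison, 80% of 50 genes shifted by 0.5 on the log2 scale were recovered and 100% of 50 at 1. Of the genes not shifted, 9 were called. The noise was drawn for each gene on its own with limma's moderated variance. It held no variation shared between genes, as the squamous markers have, so recovery in the real data can be lower. The alternatives were the replicate number as a block, other scalings and priors, array weights, other sets of genes, marker means as covariates, and each array left out in turn.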

Additional observations from a re-analysis of the deposited data

How the results depend on the processing

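Lox and Fn1 kept their direction and their call under all 16 alternatives, and Eln and Fbn1 kept their direction under each that included them. As the members were chosen with this difference known and the arrays are the same, this describes the fits and is no test of the members. Without 1 array in turn, the 4 called members became 2 to 4, the 8 higher partner genes 1 to 13, the 2 lower ones 0 to 2, and over all genes the 167 higher ones 42 to 295 and the 221 lower ones 51 to 308. With the smooth muscle mean as a covariate these counts were 2 members, 0 and 0 partner genes, and 77 and 95 genes over all. Array weights gave 5 members, Loxl2 being added, 18 and 4 partner genes, and 818 and 1061 genes over all. The labels number the samples 1 to 3 in each group and do not give a batch. Same-numbered samples did not all deviate together (correlations of deviations from the group means -0.279, 0.347 and 0.228). Between differently numbered samples these correlations ran from -0.489 to 0.375. With 3 arrays in a group these values cannot decide whether same-numbered samples share more than a number. With the replicate block the counts were 4 members, 6 higher and 1 lower partner gene, and 110 and 128 genes over all. Quantile normalization left 1 lower partner gene. Fbn1 lost its call with quantile normalization and with the squamous covariate, and it was not tested where only genes named in the platform annotation were used, an alternative added after seeing the data, so that 3 members were called in each of these. Median centring, leaving out the dimmest 40% of genes, a prior with trend and robust settings, all probe sets and the squamous covariate changed no count of members, partner genes or all genes by over 1.5 times. The cause of these changes was not tested.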
